A study of Mus musculus with 5 samples.

Results

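The Zic genes encode zinc finger transcription factors, and 4 of them, Zic1, Zic2, Zic4 and Zic5, were followed here on arrays of mouse embryonic stem cells. A probe set, the group of probes that reports 1 transcript, was taken as a member when the platform annotation gave it 1 of these symbols and no other. This gave 8 of 45037 probe sets, or 4 of 18193 genes: 3 probe sets for Zic5, 2 each for Zic1 and Zic4, and 1 for Zic2. Where a gene had several, the brightest by its mean over the 5 arrays stood for the gene. The members, and the gene lists set beside them, were chosen with earlier results of these data known.

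The arrays came from 3 samples labelled Trip12 mut/mut, homozygous for a mutation of Trip12, and from 2 wild-type (WT) samples. The protein is a ubiquitin ligase of the HECT class, which marks target proteins with ubiquitin. All were E14 cells, a mouse embryonic stem cell line, grown on a layer of mouse embryo fibroblasts as feeder cells with serum replacement and leukaemia inhibitory factor. The sources used here do not state what the mutation is, how many clones were used or whether feeder cells were removed before extraction. The labels call the samples biological replicates and name no separate cultures, so the p-values measure the spread between these samples, which may be technical.

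Zic proteins bind DNA through a zinc finger domain related to that of the Gli factors, which carry the hedgehog signal to the nucleus. Mammalian Zic genes lie largely in head-to-head pairs, and Zic1 and Zic4 form a neighbouring pair on mouse chromosome 9, as Zic5 and Zic2 do on chromosome 14. Zic2 and Zic5 are active in the epiblast around implantation and then in the neural plate, and Zic2 is needed for forebrain and neural tube formation. Zic1 and Zic4 act later, in the dorsal neural tube, the cerebellum and the somites, and Zic1 is also active in mesenchyme of the embryo.

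Values are log2 RMA values, in which 1 unit is a 2-fold difference in signal, and the median of all values was 5.52. The array labelled Trip12 mut/mut replicate 1 stood with the WT arrays. It differed from them by more than 2-fold at 0 probe sets, as the WT arrays did from each other, while replicates 2 and 3 differed from WT at between 293 and 545. The brightest Trip12 probe set read 10.18 on replicate 1, 12.09 on replicate 2 and 12.57 on replicate 3, against 10.17 and 10.25 on the WT arrays, and its place relative to the mutated site is unknown. Only that probe set was read for Trip12, so it does not give the level of Trip12 RNA as a whole. The 12 embryonic stem cell markers were all above the median of all values, and so were all 23 fibroblast markers. The Zic genes are therefore given over all 5 arrays, and again without the array labelled replicate 1 and without dim probe sets; calls among the lists come from the second comparison, since 0 members of any list passed over all 5 arrays. Since that array was left out because of its values, the p-values of the second comparison are too favourable. Leaving out that array with the dim probe sets kept gave calls for 0 of 18193 genes. The second comparison was the only setting tried that gave any calls, and all counts of calls among the lists rest on it.

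Zic2 and Zic5 were lower on replicates 2 and 3 than in WT cells, Zic1 was higher on both, and Zic4 was dim on every array. Zic2, a regulator of the epiblast and the neural plate, read 9.27 on the array labelled replicate 1, 7.61 on replicate 2 and 7.24 on replicate 3, against 9.40 and 9.28 on the WT arrays. Replicates 2 and 3 thus lay far below both WT arrays, whereas the array labelled replicate 1 lay only just below the lower of them. Relative to the WT mean the Zic2 signal was 3.31-fold lower on replicate 2 and 4.28-fold lower on replicate 3; 0.396% of all genes were more than 2-fold lower on both.

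Zic5, its neighbour, read 9.55 on the array labelled replicate 1, 8.18 on replicate 2 and 7.80 on replicate 3, against 9.54 and 9.43 on the WT arrays. The array labelled replicate 1 was the highest of the 5 for this probe set, so the groups overlapped, and replicates 2 and 3 were the lowest. Its signal was 2.47-fold below the WT mean on replicate 2 and 3.21-fold below it on replicate 3.

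The other Zic5 probe sets were also lowest on replicates 2 and 3. One read 9.28, 7.86 and 7.54 on Trip12 mut/mut replicates 1, 2 and 3, against 9.38 and 9.37 on the WT arrays. The dimmer one read 6.13, 4.68 and 5.50, against 6.29 and 6.26. In both, all 3 mutant arrays lay below both WT arrays, as they did for 5.9% of all probe sets, and the array labelled replicate 1 was the nearest to WT. Over the 3 probe sets the signal was between 2.47-fold and 3.03-fold lower than the WT mean on replicate 2, and between 1.71-fold and 3.57-fold lower on replicate 3.

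Zic1, a factor of the dorsal neural tube and of embryonic mesenchyme, went the other way. Its brighter probe set read 7.40 on the array labelled replicate 1, 8.63 on replicate 2 and 8.31 on replicate 3, against 7.23 and 7.25 on the WT arrays. The groups did not overlap, and the array labelled replicate 1 was nearer to WT than to replicates 2 and 3. The signal was 1.11-fold, 2.62-fold and 2.10-fold that of the WT mean on replicates 1, 2 and 3, and 0.192% of all genes were more than 2-fold higher on both of the last arrays. The second Zic1 probe set was below the median of all values throughout, with 3.73, 4.29 and 4.89 on Trip12 mut/mut replicates 1, 2 and 3, against 4.07 and 4.13 on the WT arrays. There the groups overlapped, with replicates 2 and 3 highest and the array labelled replicate 1 lowest.

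Zic4, which neighbours Zic1, lay among the dim probe sets. Its brighter probe set read 3.84, 3.75 and 3.75 on Trip12 mut/mut replicates 1, 2 and 3, against 3.64 and 3.84 on the WT arrays. The other read 3.30, 3.50 and 3.30, against 3.08 and 3.24, with all 3 mutant arrays above both WT arrays, as for 5.01% of all probe sets. RMA gives no detection call, so these values do not show whether the transcript was present. Zic4 did not pass the filter on dim probe sets, and 3 of the 4 genes did.

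**Figure D1:**
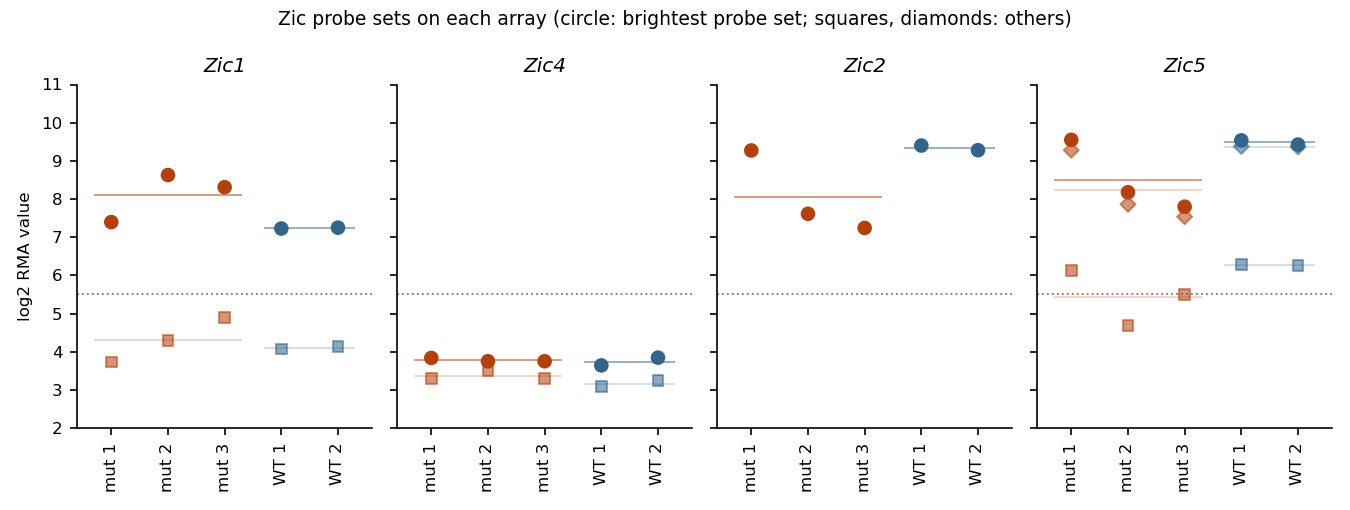
Log2 RMA values of the 8 Zic probe sets (vertical axis) on each array (horizontal axis), with Trip12 mut/mut arrays (mut) in orange left of the WT arrays in blue; circles are the brightest probe set of a gene, squares and diamonds its other probe sets, horizontal lines the group means, and the dotted line the median of all values, 5.52. Zic2 and Zic5 are low and the brighter Zic1 probe set is high on mut 2 and mut 3, while mut 1 lies with WT. For the dimmer Zic1 probe set mut 1 is the lowest array, at 3.73 against 4.07 and 4.13 in WT. Both Zic4 probe sets stay below 4 on all arrays.

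Over all 5 arrays none of the 4 genes passed the test across the array. Zic2 averaged 8.04 ± 1.08 (SD, n = 3) in Trip12 mut/mut cells and 9.34 ± 0.09 (SD, n = 2) in WT cells, a difference of -1.30 with an SE of 0.67 (limma, adjusted p = 0.748). Zic5 averaged 8.51 ± 0.92 in Trip12 mut/mut cells and 9.48 ± 0.08 in WT cells, a difference of -0.97 with an SE of 0.57 (limma, adjusted p = 0.748). Zic1 averaged 8.11 ± 0.64 in Trip12 mut/mut cells and 7.24 ± 0.02 in WT cells, a difference of 0.87 with an SE of 0.40 (limma, adjusted p = 0.748). Zic4 averaged 3.78 ± 0.05 in Trip12 mut/mut cells and 3.74 ± 0.14 in WT cells, a difference of 0.04 with an SE of 0.08 (limma, adjusted p = 0.867). The share of genes called was 0% of 18193, with 214 genes below an unadjusted p of 0.05, so the absence of calls was common to the whole array. All mutant arrays lay above both WT arrays for Zic1, as for 5.73% of all genes, and all lay below both for Zic2, as for 6.29%. The distance between the nearest Trip12 mut/mut and WT arrays was 0.146 for Zic1 and 0.0072 for Zic2.

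Without the array labelled replicate 1 and without dim probe sets, each of the 3 genes that could be tested passed. Zic2 fell by 1.91 on the log2 scale (SE 0.15; limma, adjusted p = 0.042), which is 3.76-fold. Zic5 fell by 1.49 (SE 0.15; limma, adjusted p = 0.042), which is 2.81-fold, and Zic1 rose by 1.23 (SE 0.13; limma, adjusted p = 0.042), which is 2.35-fold. The background in that comparison was 4.64% of 11626 genes called, 1.34% lower and 3.29% higher. Only 17 of the 11626 genes had a more negative difference than Zic2, 33 a more negative one than Zic5, and 18 a more positive one than Zic1. With the dim probe sets kept the 3 genes did not pass (limma, adjusted p = 0.0785 for Zic2 and 0.0815 for both Zic5 and Zic1). In the fit over probe sets, 0.066% of 22734 were called without dim probe sets and none of the Zic probe sets was among them. There the adjusted p was 0.0596 for the Zic2 probe set, for the brighter Zic1 probe set and for 2 of the Zic5 probe sets, and 0.125 for the dimmer Zic5 probe set (limma), which passed the filter through its WT values alone. These are totals of RNA over all cells of a sample, in which fewer cells of a type and less RNA per cell cannot be told apart.

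**Figure D2:**
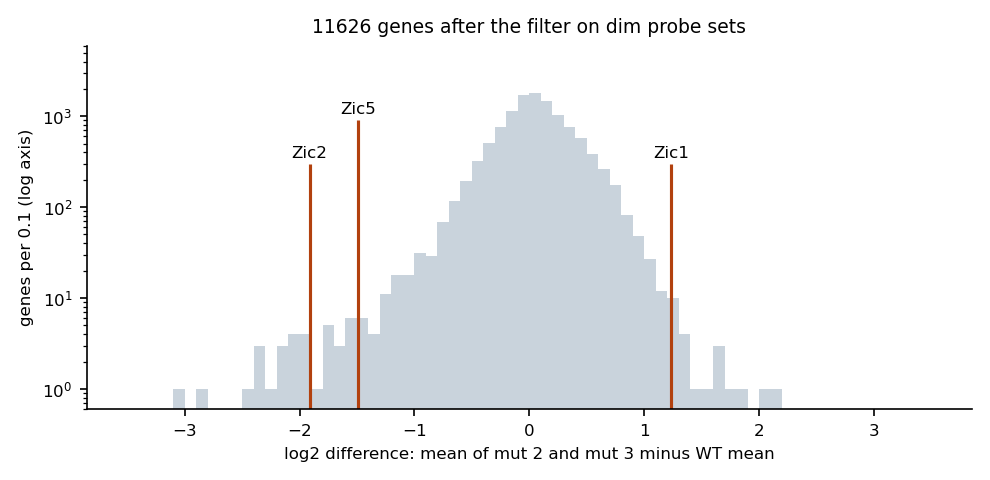
Number of genes per bin of 0.1 (vertical axis, log scale) by their log2 difference, the mean of Trip12 mut/mut replicates 2 and 3 minus the WT mean (horizontal axis), for the 11626 genes left without dim probe sets; orange lines mark Zic1, Zic2 and Zic5. Zic2 at -1.91 and Zic5 at -1.49 lie in the lower tail and Zic1 at 1.23 in the upper tail.

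The neighbouring members of the chromosome 14 pair differed in the same direction and those of the chromosome 9 pair could not be compared, Zic4 being dim. In the RefSeq gene order of assembly GRCm38.p6, 1 gene lay between Zic5 and Zic2, the noncoding RNA gene 2610035F20Rik. It was itself dim, at 3.91, 3.45 and 3.28 on Trip12 mut/mut replicates 1, 2 and 3, against 3.79 and 3.82 on the WT arrays. Of the 5 genes on each side of that pair, 3 of 10 were on the array with a probe set of their own. Clybl, which encodes a citramalyl-CoA lyase of mitochondria, read 8.98, 8.72 and 8.98 on Trip12 mut/mut replicates 1, 2 and 3, against 8.93 and 9.05 on the WT arrays. Pcca, a subunit of propionyl-CoA carboxylase, read 7.96, 6.98 and 7.66, against 7.91 and 7.86. Neither passed without the array labelled replicate 1 and without dim probe sets (limma, adjusted p = 0.488 for Clybl, with a difference of -0.14, and 0.245 for Pcca, with a difference of -0.56). The third, Gm5089, was dim, with a difference of 0.04 for replicates 2 and 3. Around Zic1 and Zic4, 0 of the 10 nearest genes were measured.

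Because Zic1 and Zic5 lay on opposite sides of WT on replicates 2 and 3, the 250 bases before their starts are shown, from the RefSeq promoter table of GRCm38.p6, which held a window for 3 of the 4 genes. The Zic1 window is chr9:91365769-91366018 on the minus strand and the Zic5 window is chr14:122465659-122465908 on the minus strand. Each is written 5′ to 3′ on the strand of the gene, and capitals mark any match to the motifs searched.
Zic1: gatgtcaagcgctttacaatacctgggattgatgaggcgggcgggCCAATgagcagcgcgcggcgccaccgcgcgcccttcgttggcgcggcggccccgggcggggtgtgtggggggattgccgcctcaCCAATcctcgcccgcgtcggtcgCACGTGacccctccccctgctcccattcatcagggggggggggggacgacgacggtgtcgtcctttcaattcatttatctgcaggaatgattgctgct
Zic5: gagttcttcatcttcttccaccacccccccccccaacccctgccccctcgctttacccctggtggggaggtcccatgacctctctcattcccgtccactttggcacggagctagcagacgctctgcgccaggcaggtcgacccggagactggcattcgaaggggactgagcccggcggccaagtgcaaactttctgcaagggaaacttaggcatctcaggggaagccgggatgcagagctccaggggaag

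The motifs searched, on both strands, were CCAAT, the E-box CACGTG, the OTX2 core TAATCC and the GLI consensus TGGGTGGTC, none of which overlap in these windows. The Zic1 window held 2 CCAAT boxes and 1 E-box, and the Zic5 window held 0 matches to any of the 4. Of 32851 promoter windows of this length, 33.8% held CCAAT, 6.02% the E-box, 6.25% TAATCC and 0.225% the GLI consensus. The Zic1 window had a GC content of 66% with 27 CpG dinucleotides, the Zic5 window 62.4% with 11, and the median window 52.4% with 6. A match is a description of these letters only, and its absence says nothing about a factor.

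Genes of the formative epiblast, the state of pluripotent cells around implantation in which Zic2 and Zic5 are active, were lower beside these 2 genes. Of the 9 listed, 8 fell and 0 rose without the array labelled replicate 1 and without dim probe sets, where 1.34% of all genes were called lower and 3.29% higher. One of the 8, the growth factor gene Fgf5, passed the filter through its WT values alone, and 7 of the 8 others fell. The median difference of the 9 was -1.24, and -1.20 without Fgf5, against 0.05 for all 11626 genes. Otx2, a homeobox factor of the epiblast and forebrain, read 10.18, 7.80 and 7.79 on Trip12 mut/mut replicates 1, 2 and 3, against 10.26 and 10.23 on the WT arrays. The log2 differences were -2.45 for Otx2, -2.06 for Lef1, a mediator of Wnt signals, and -1.69 for Dnmt3b, which encodes a de novo DNA methyltransferase. The decrease of Zic2 was smaller than that of 3 of the 9 and that of Zic5 smaller than that of 4. Sox4, which encodes an HMG box factor and was the only one of the 9 not to pass, differed by 0.43. Without the array labelled replicate 1 but with the dim probe sets kept, none of the 9 passed, the lowest adjusted p being 0.0785 (limma). Over all 5 arrays 0 of the 9 passed, with a median difference of -0.82, against 0.02 for all 18193 genes.

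General markers of embryonic stem cells differed less from WT than Zic2 and Zic5 did. The differences of the 12 markers on replicates 2 and 3 lay between -0.97 and 0.57, and 0 of the 12 reached that of Zic5. Their mean was 11.37, 11.11 and 11.23 on Trip12 mut/mut replicates 1, 2 and 3, against 11.37 and 11.38 on the WT arrays. In the comparison without the array labelled replicate 1 and dim probe sets 2 of 12 fell, the RNA-binding protein gene Lin28a by 0.97 and the chromatin factor gene Utf1 by 0.80, and 0 rose, against 1.34% of all genes called lower and 3.29% higher. None of the 12 passed over all 5 arrays, where the median difference was -0.09.

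Genes of the neural plate, a later site of Zic activity, were mostly dim and differed in both directions. Of the 18 measured, 6 were at or above the median of all values on average. The median difference over replicates 2 and 3 was -0.01 for the 18, and -0.41 for the 7 that passed the filter, against 0.05 for all genes that did. Of the 7 tested, 1 fell and 0 rose, against 1.34% of all genes called lower and 3.29% higher. This was Hesx1, a homeobox gene of the anterior neural plate, which was named after its values were seen. It read 5.59, 4.99 and 5.02 on Trip12 mut/mut replicates 1, 2 and 3, against 5.73 and 5.71 on the WT arrays, and passed the filter through its WT values alone. Without it, 0 of 6 passed and the median difference was -0.14. Nes, an intermediate filament gene of neural progenitors, and Pax6, a homeobox factor of the eye and forebrain, had differences of -0.53 and -0.41 (limma, adjusted p = 0.0553 and 0.0643). The adhesion molecule genes Ncam1 and Cdh2 had differences of 0.68 and 0.52 (limma, adjusted p = 0.0815 and 0.133). With all 5 arrays the median difference was 0.0072, and 0 of the 18 passed.

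Dorsal neural tube genes, among which Zic1 acts in the embryo, gave 0 calls in 7 tested, against 4.64% of all genes called. With so few tested, the absence of calls does not set the list apart. The median difference was 0.23 in those 7, against 0.05 for all 11626 genes, and 0.04 in all 15 measured. The median was also 0.04 over all 5 arrays, where 0 of the 15 passed. Snai2, a zinc finger repressor of neural crest and mesenchyme, had the smallest p of them and a difference of 0.64 (limma, adjusted p = 0.0607). Neuron markers had a median of -0.03 over 9 genes. The neurofilament gene Nefl fell by 1.94 and the RNA-binding protein gene Elavl3 by 0.62, and the other 3 tested did not pass. Thus 2 of the 5 tested were called lower and 0 higher, against 1.34% and 3.29% of all genes. The median difference of these 5 was -0.14, against 0.05 for all 11626 genes. None of the 9 neuron markers passed over all 5 arrays, where their median was -0.02.

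Among the related Gli and Glis factors and the hedgehog pathway, Gli1 alone passed. Gli1, a zinc finger factor whose transcription is itself a common readout of hedgehog signalling, read 6.47, 7.75 and 7.35 on Trip12 mut/mut replicates 1, 2 and 3, against 6.30 and 6.44 on the WT arrays. All 3 mutant arrays lay above both WT arrays, as for 5.73% of all genes, and by only 0.037 on the array labelled replicate 1. Without that array and without dim probe sets it rose by 1.18 (SE 0.16; limma, adjusted p = 0.0492), and over all 5 arrays its adjusted p was 0.748 (limma). The other 12 genes of this list tested there did not pass. Thus 1 of 13 was called higher and 0 lower, against 3.29% and 1.34% of all genes. A single call in so few genes does not set the list apart. Ptch1, the hedgehog receptor and also a transcriptional target of the pathway, differed by 0.12 (limma, adjusted p = 0.622), with 9.11, 9.14 and 9.54 on Trip12 mut/mut replicates 1, 2 and 3, against 9.22 and 9.22 on the WT arrays. Gas1, a hedgehog co-receptor, differed by 0.46 and Gli2 by 0.33. The ligand genes Shh, Ihh and Dhh were dim. The median difference of the 13 genes was 0.12, against 0.05 for all genes. Over all 5 arrays 0 of the 17 measured genes of the list passed, with a median of 0.04.

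Fibroblast markers were higher on the arrays on which Zic1 was higher. Their mean over 23 genes was 10.25, 10.69 and 10.70 on Trip12 mut/mut replicates 1, 2 and 3, against 10.28 on both WT arrays. Differences on replicates 2 and 3 lay between -1.10 and 1.28 with a median of 0.53, and were above 0 for 21 of 23. Without the array labelled replicate 1 and dim probe sets 7 of the 23 rose and 1 fell, against 3.29% of all genes called higher and 1.34% lower. With all 5 arrays the count was 0 of 23 and the median difference 0.35. Timp3, a metalloproteinase inhibitor, rose by 1.28 and was the only one of the 23 with a difference as large as that of Zic1. The mesenchymal transcription factor genes Twist2 and Prrx1 rose by 0.90 and 0.66, and the calponin gene Cnn1 fell by 1.10. No fibroblast marker was dim on average. The part of fibroblast RNA in the Zic1, Zic2, Zic5 and Gli1 differences was not tested.

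Markers of head mesenchyme and meninges, tissues in which Zic1 is active, were mostly dim. Of 9 measured, 3 were at or above the median of all values on average. Of these 3, 0 passed, against 4.64% of all genes called, and so few tested genes do not set the list apart. Over replicates 2 and 3 the median difference was 0.14 for the 9. It was -0.04 for the 3 tested, against 0.05 for all 11626 genes. The median of the 9 over all 5 arrays was 0.05, and 0 passed. Tbx18, a T-box factor of mesenchyme, differed by 0.49 (limma, adjusted p = 0.0701). The retinoic acid binding protein gene Crabp2 differed by -0.33. None of the 9 reached the difference of Zic1, the highest being 0.59.

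**Figure D3:**
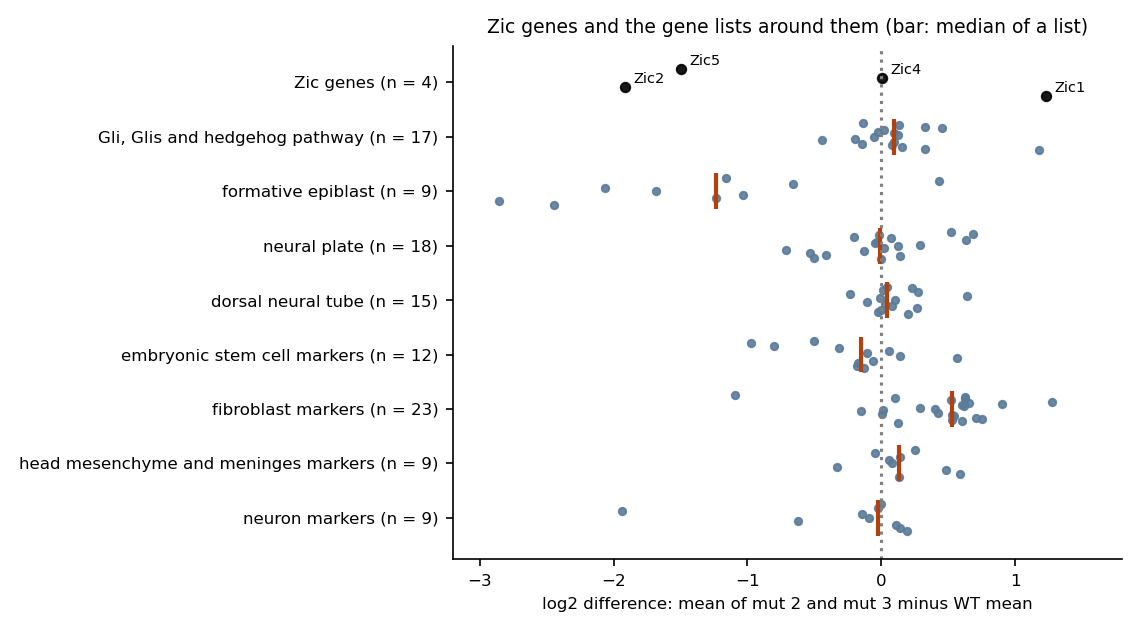
Log2 differences, the mean of Trip12 mut/mut replicates 2 and 3 minus the WT mean (horizontal axis), for the 4 Zic genes in black and for the measured genes of 8 lists in blue, each point 1 gene, with an orange bar at the median of each list (n genes in brackets). Zic2 and Zic5 lie within the range of the formative epiblast list, and Zic1 lies above all but 1 fibroblast marker.

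The gene whose pattern over the 5 arrays was most like that of Zic1 was Gli1. Likeness was the Euclidean distance between log2 profiles centred on the WT mean, over 11559 other genes that were at or above the median of all values on average. All genes share the same 5 arrays, so a small distance mostly reflects a like difference on replicates 2 and 3. Gli1 was at 0.132 from Zic1, followed by Mmp9, a matrix metalloproteinase gene, at 0.221 and Oas2, an interferon-induced antiviral enzyme gene, at 0.232. Nearest to Zic2 were the carbonic anhydrase gene Car3 at 0.254, and Tmem54 and Nefl, each at 0.268. Nearest to Zic5 were Jph1, which encodes a junctophilin of membrane contacts, at 0.234, the homeodomain-only gene Hopx at 0.235 and the potassium channel gene Kcnk1 at 0.245. Zic2 and Zic5 were at 0.608 from each other, so that Zic5 ranked as number 19 in order of distance from Zic2 and Zic2 as number 34 from Zic5.

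**Figure D4:**
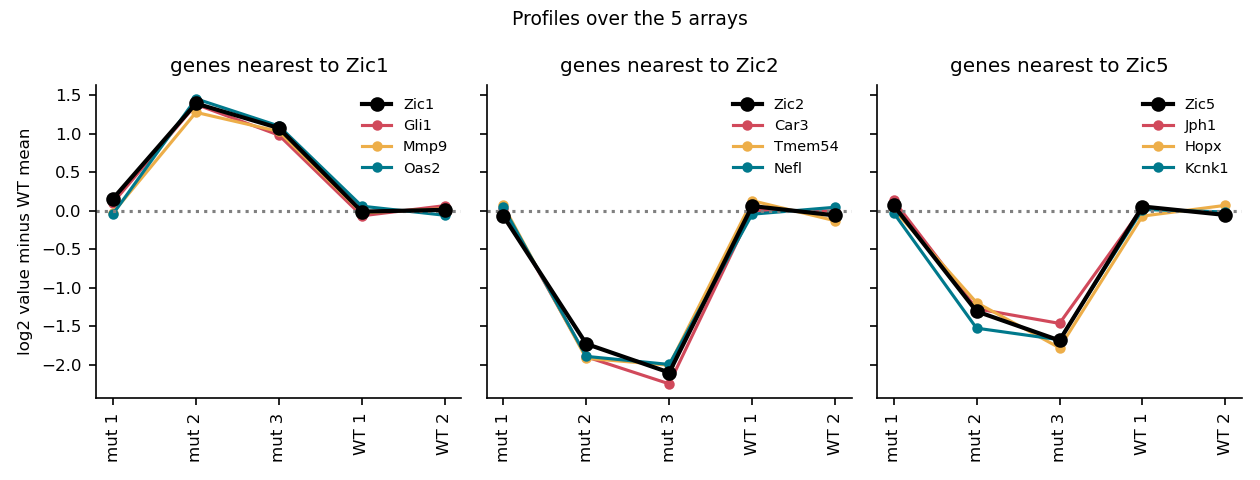
Log2 value minus the WT mean (vertical axis) on each array (horizontal axis, Trip12 mut/mut arrays left of the WT arrays) for Zic1, Zic2 and Zic5 in black and the 3 genes at the smallest distance from each in colour. Gli1 follows Zic1 on all 5 arrays at a distance of 0.132, and on mut 1 every profile lies near 0.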

How the data were processed

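Total RNA of 5 samples was hybridised to Affymetrix arrays, per the labels' protocols. The deposited log2 values, 1 per probe set and array, were made by the authors with RMA, per the submitters' processing notes; the sources used here give no version. RMA normalises arrays to each other, so a shift shared by all transcripts cannot be seen, and compresses differences of dim probe sets. Precision is limited by the number of arrays.

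Of 45101 probe sets, 64 controls were left out. Of the rest, 34945 had 1 gene symbol in the platform annotation, 932 several and 9160 none; 34741 symbols were updated by gene number through the RefSeq table of GRCm38.p6, used otherwise only for gene order and chromosomes. Trip12 mut/mut was compared with WT in R 4.3.3 with limma 3.58.1 (eBayes after lmFit, two-sided, Benjamini-Hochberg over all genes or probe sets, threshold 0.05). The procedure was tested on simulated data of 5 arrays with every gene kept. That setting did not cover the comparison without the array labelled replicate 1 and without dim probe sets. The filter on dim probe sets kept those with at least 2 arrays above the median of all values, 5.52. Members, lists, alternatives and the naming rule (up to 4 genes a list with the smallest p at or above that median, the 3 nearest genes in pattern, and 5 genes on each side of a Zic pair) were chosen with earlier results of these data known. Figures used matplotlib 3.10.9 in Python 3.11.15.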

Additional observations from a re-analysis of the deposited data

How the results depend on the processing

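Over all 5 arrays 0 of 18193 genes and 0 of 45037 probe sets passed in limma (214 and 658 below an unadjusted p of 0.05), and the counts stayed at 0 with quantile normalisation, centred array medians, dim probe sets removed, a variance trend, array weights, the replicate block, either other rule for a gene with several probe sets, and each array left out in turn. Leaving out the array labelled Trip12 mut/mut replicate 1 together with the dim probe sets gave 539 genes and 15 probe sets, and the differences of Zic1, Zic2 and Zic5 then passed at 1.23, -1.91 and -1.49 (limma, adjusted p = 0.042 each). Over their other alternatives the adjusted p of these 3 genes lay between 0.0785 and 0.987, with no change of direction. With 1 array left out the difference lay between 0.61 and 1.23 for Zic1, -1.91 and -0.90 for Zic2, -1.49 and -0.62 for Zic5, and -0.06 and 0.14 for Zic4. The last changed sign without WT replicate 1 (-0.065) and has no stable direction; Zic4 gave no value where dim probe sets were removed. With the mean of its probe sets the Zic1 difference was 0.54. The WT and mutant samples share replicate numbers 1 and 2 only. Deviations from the group means of like-numbered samples correlated at -0.04 and -0.08 over probe sets. With 2 WT arrays the WT deviations mirror each other, so this check cannot show whether the numbers pair the samples. With the replicate block the differences were 0.77 for Zic1, -0.90 for Zic2, -0.62 for Zic5 and 0.05 for Zic4 (limma, adjusted p = 0.801 for the first 3 and 0.886 for Zic4).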
